A study of Homo sapiens with 12 samples.

Results

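The 3 arrays of cells that received a MED12 hairpin plasmid (short hairpin RNA, shRNA 5 of the labels) were set against the 9 other arrays of the experiment, out of 12 in all, over the 14432 array rows that carry a single gene symbol. The cells were HEK293, a long-established line from human embryonic kidney. They were transfected by lipofection and collected 48 hours later by a 20 minute flow sort for viable, GFP-positive cells. The hairpin was made from an H1 promoter in peGFP-C1, a vector that also makes GFP. The 9 other arrays were 3 arms of 3 biological replicates each, all in pcDNA5/TO with a nuclear GFP: GFP alone, full-length MED12, and MED12 cut short at its C terminus by removal of the PQL and Opa domains (the PQL/Opa deletion). Every arm was therefore transfected and expressed a GFP, and each was transient, in a sorted population rather than a clone. The labels list 0 control hairpin groups, so the other vector, the presence of a hairpin and the loss of MED12 cannot be told apart. The comparison asks what set the hairpin arm apart from every arm without a hairpin.

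Cells answer foreign RNA through sensors such as RIG-I (RIGI) and MDA5 (IFIH1), which lead to the production of interferon. Interferon receptors then signal through STAT proteins to many antiviral genes, whose promoters often hold the interferon-stimulated response element. The heat shock response is another stress programme, in which heat shock factors switch on chaperones that hold or refold damaged proteins. MED12 belongs to the kinase module of Mediator, a large assembly through which transcription factors reach RNA polymerase II.

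Across the rows with 1 symbol, 21 differed between the hairpin arrays and the 9 others (limma, adjusted p under 0.05, 0.146% of rows). Of these 15 were higher with the hairpin (0.104%) and 6 were lower (0.0416%). The 15 higher genes were TRIM22, IFIT2, RSAD2, IFI44, IFIT1, IFIT3, IFITM1, NT5C3A, NMI, OAS2, OAS1, PARP14, SAMD9, IFIH1 and ERAP2, and 14 of them belong to 7 lists of interferon pathway genes. The 6 lower genes were MED12, the heat shock list members DNAJB1, HSPH1, ZFAND2A and HSPA1L, and SKP1, an adaptor of a ubiquitin ligase. Over all 22011 rows, which include those with several symbols or none, 27 were called (0.123%), 16 higher and 11 lower, or 25 and 11 after scaling the arrays to a common spread. An unadjusted p under 0.05 was reached by 509 rows with 1 symbol in the higher direction (3.53%) and 615 in the lower (4.26%). All 3 hairpin arrays lay above all 9 others in 164 rows with 1 symbol (1.14%) and below them in 149 (1.03%). In RNA from a population of cells, fewer cells of a type and less RNA per cell cannot be told apart.

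The promoters of the higher genes were searched because these genes moved together. RefSeq promoter sequences (GRCh38.p14, the 250 bases before the gene start) were matched for 12 of the 15 genes. The core of the interferon-stimulated response element was searched as GAAA, any 2 bases and GAAA again, on both strands (so also as TTTC, any 2 bases and TTTC), with overlapping matches allowed. It was present in 8 of the 12 (66.7%), against 3.07% of all 27305 promoters of the table. Since 14 of these 15 genes are on interferon lists, whose members often hold this element, the excess is a description and not a test. Shown here are the promoters of IFI44 (chr1:78649539-78649788, plus strand) and NMI (chr2:151289669-151289918, minus strand), which were higher than in each other arm separately, and of IFIT1 (chr10:89392373-89392622, plus strand) and IFIT3 (chr10:89327747-89327996, plus strand), which each hold 2 matches. Each is written 5′ to 3′ along the gene, with the matches in capitals.
IFI44: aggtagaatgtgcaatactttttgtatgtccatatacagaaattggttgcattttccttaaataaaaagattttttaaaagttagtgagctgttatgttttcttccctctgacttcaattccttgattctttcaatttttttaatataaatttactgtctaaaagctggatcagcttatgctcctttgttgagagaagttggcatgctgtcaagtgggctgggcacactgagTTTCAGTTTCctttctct
NMI: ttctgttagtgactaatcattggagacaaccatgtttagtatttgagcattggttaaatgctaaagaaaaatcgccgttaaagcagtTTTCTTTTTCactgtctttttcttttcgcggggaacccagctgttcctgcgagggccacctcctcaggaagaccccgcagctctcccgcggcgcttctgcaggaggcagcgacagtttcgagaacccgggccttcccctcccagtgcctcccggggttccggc
IFIT1: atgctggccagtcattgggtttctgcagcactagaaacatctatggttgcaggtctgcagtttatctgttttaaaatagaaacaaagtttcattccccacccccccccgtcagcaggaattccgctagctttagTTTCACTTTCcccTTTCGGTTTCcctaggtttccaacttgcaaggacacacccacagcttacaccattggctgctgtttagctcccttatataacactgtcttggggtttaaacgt
IFIT3: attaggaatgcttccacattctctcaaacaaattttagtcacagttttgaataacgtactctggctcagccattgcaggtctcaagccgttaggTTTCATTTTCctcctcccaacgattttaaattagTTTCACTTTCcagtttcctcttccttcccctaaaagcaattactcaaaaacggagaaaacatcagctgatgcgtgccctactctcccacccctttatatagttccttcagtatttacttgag

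In IFI44 the match lay 18 to 9 bases before the annotated start, and in NMI 163 to 154 bases before it. The IFIT1 pair lay within 116 to 94 bases before the start, and the IFIT3 pair within 156 to 113. The letters were found in 17 of 31 matched promoters (54.8%) of interferon list genes whose hairpin arrays were all above the other 9, and in 14 of 50 (28.0%) of the other interferon list genes. That split was made on the hairpin values themselves, so it too is a description. The letters were in 0 of the 6 promoters of the lower genes. A heat shock element core, searched in the same way as GAA, TTC and GAA (or TTC, GAA and TTC) with any 2 bases between neighbours, was in 0.439% of all promoters, in 3 of 20 matched chaperone promoters (15%) and in 0 of the 6 promoters of the lower genes.

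Among the proteins that act on RNA, IFIT1, IFIT2, IFIT3, OAS1 and OAS2 were higher with the hairpin. IFIT2, which binds RNA and restrains translation, was at log2 values of 6.06, 7.07 and 6.68 in hairpin replicates 1, 2 and 3, against 3.67 to 5.13 (median 4.61) in the 9 others. No hairpin array overlapped the others, and the difference was 2.09 ± 0.20 (SE), a 4.26-fold higher level (limma, adjusted p = 0.00155). IFIT1, which binds RNA caps that lack the marks of the cell's own RNA, was at 6.57, 7.47 and 6.64 against 4.50 to 5.88 (median 5.01), a difference of 1.83 ± 0.22 (limma, adjusted p = 0.00528). IFIT3, a partner of IFIT1, was at 5.93, 6.20 and 5.68 against 3.43 to 5.32 (median 3.89), a difference of 1.77 ± 0.22 (limma, adjusted p = 0.00783). Its hairpin arrays again stood apart, although the 2 highest arrays among the others, at 5.32 and 5.04, were of the PQL/Opa deletion.

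OAS2 and OAS1 make the oligoadenylates that switch on RNase L. OAS2 was at 3.77, 4.47 and 3.89 in the hairpin arrays against 2.40 to 2.91 (median 2.66), a difference of 1.40 ± 0.16 (SE; limma, adjusted p = 0.00466). OAS1 was at 4.09, 5.06 and 4.50 against 2.85 to 3.49 (median 3.19), a difference of 1.35 ± 0.20 (limma, adjusted p = 0.0219). Replicate 2 was the highest hairpin array for both genes, and neither overlapped the other 9. With 1 array left out at a time, the OAS1 call was lost in 6 of 12 fits, those without any full-length array, PQL/Opa deletion replicate 3, shRNA replicate 3 or GFP replicate 3, with differences of 1.33 to 1.37 and adjusted p from 0.0519 to 0.164. The relatives IFIT5 (0.92 ± 0.23, adjusted p = 0.318), OAS3 (0.49 ± 0.13, adjusted p = 0.320) and OASL (0.47 ± 0.17, adjusted p = 0.506) did not pass, and OASL overlapped the other arrays. Of the 13 measured genes on this list 5 were called higher, against 0.104% of all rows with 1 symbol. In 8 of them all 3 hairpin arrays were above all others, against 1.14% of those rows, and the list's median difference was 0.73.

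Among the virus restriction factors TRIM22, RSAD2, IFITM1 and SAMD9 were higher with the hairpin. TRIM22, a ubiquitin ligase that restrains several viruses, was at 4.08, 4.97 and 4.71 in the hairpin arrays against 2.00 to 2.92 (median 2.40), the largest difference of the higher genes at 2.20 ± 0.23 (SE; limma, adjusted p = 0.00224). RSAD2, or viperin, which makes a nucleotide analogue that stops viral polymerases, was at 5.96, 6.45 and 6.43 against 3.45 to 4.91 (median 4.28), a difference of 2.05 ± 0.18 and a 4.15-fold higher level (limma, adjusted p = 8.15e-04). All arrays of both genes were clear of the others.

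IFITM1, a membrane protein that hinders virus entry, was at 5.13, 5.68 and 5.11 against 3.29 to 4.09 (median 3.66), a difference of 1.64 ± 0.18 (SE; limma, adjusted p = 0.00352). Its sequence is close to that of its IFITM neighbours, so which of them the probes read is uncertain. SAMD9, which restricts poxviruses, was at 4.95, 5.18 and 5.03 against 3.49 to 4.23 (median 3.77), a difference of 1.23 ± 0.13 (limma, adjusted p = 0.00224). The list held 14 measured genes, of which 4 were called higher, against 0.104% of all rows with 1 symbol. In 9 there was no overlap, against 1.14% of those rows, and the list's median difference was 0.78. Without shRNA replicate 2 that median was 0.59. MX1 and MX2, dynamin-like antiviral proteins, were among those without overlap, with differences of 0.82 (limma, adjusted p = 0.129) and 0.75 (adjusted p = 0.160) that did not pass.

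Of other interferon-induced genes, 3 of 24 were called higher, against 0.104% of all rows with 1 symbol. IFI44 was at 5.54, 5.98 and 5.66 in the hairpin arrays against 3.12 to 4.24 (median 3.82) in the others. Its difference of 2.01 ± 0.13 (SE), a 4.03-fold higher level, had the smallest p of the higher genes (limma, adjusted p = 4.11e-05). NT5C3A, a pyrimidine nucleotidase, was at 6.21, 5.81 and 5.91 against 3.90 to 4.97 (median 4.58), a difference of 1.44 ± 0.17 (limma, adjusted p = 0.00517). PARP14, an ADP-ribosyltransferase, was at 5.14, 6.01 and 5.40 against 3.74 to 4.88 (median 4.26), a difference of 1.27 ± 0.18 (limma, adjusted p = 0.0219). Hairpin replicate 1 was the highest for NT5C3A and the lowest for PARP14. The PARP14 call was lost in 5 of those 12 fits, those without any full-length array, shRNA replicate 3 or GFP replicate 3 (differences of 1.23 to 1.33, adjusted p from 0.0582 to 0.128). In the list 11 genes did not overlap, against 1.14% of all rows with 1 symbol, and the list's median difference was 0.39.

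**Figure D1:**
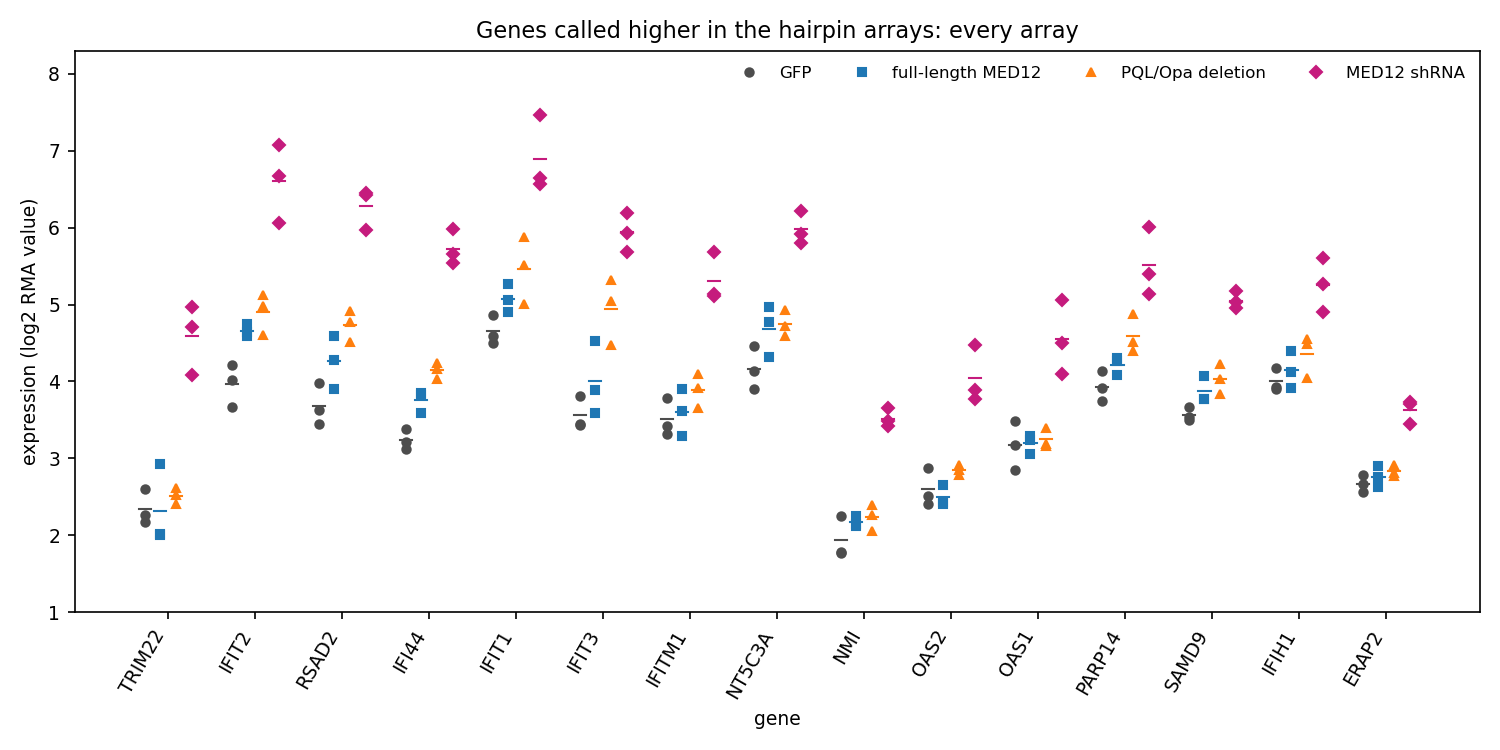
Log2 expression of the 15 genes called higher in the hairpin arrays, for every array; points are arrays, short lines are arm means, and colours and shapes mark the 4 arms. For all 15 genes the 3 hairpin arrays lie above the 9 others, and the PQL/Opa deletion has the highest mean of the other arms.

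Among the sensors of foreign nucleic acid 1 of 17 was called higher, against 0.104% of all rows with 1 symbol. IFIH1, the sensor of long double-stranded RNA, was at 4.91, 5.60 and 5.27 in the hairpin arrays against 3.90 to 4.56 (median 4.12), a difference of 1.09 ± 0.18 (SE; limma, adjusted p = 0.0461). That call was the nearest to the threshold, and it was lost in 10 of the 12 fits, all but those without shRNA replicate 1 or PQL/Opa deletion replicate 1 (differences of 0.92 to 1.14, adjusted p from 0.0630 to 0.323). RIGI, which reads uncapped RNA ends that carry phosphates, was at 5.94, 7.01 and 6.45 against 4.28 to 5.49 (median 5.07), without overlap. Its difference of 1.43 ± 0.24 lay just outside the threshold (limma, adjusted p = 0.0508). TLR3, an endosomal sensor of double-stranded RNA, had a difference of 1.14 ± 0.22 (limma, adjusted p = 0.135), and IFI16, a sensor of DNA, 0.84 ± 0.16 (adjusted p = 0.106), neither of which passed. Of the 17 sensors and adaptors 5 did not overlap, against 1.14% of all rows with 1 symbol, and the list's median difference was 0.28.

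The next list joined interferons with interferon-induced genes such as CXCL11, so its counts are not of interferons alone. Of 12 measured interferons and interferon-induced chemokines 0 passed in limma after adjustment, 1 had an unadjusted p under 0.05, and 0 were clear of the other arrays. IFNB1, an interferon made early after RNA is sensed, had a difference of 0.20 (limma, adjusted p = 0.807). Levels of the list members in the other arrays ran from the 3.96th percentile of all rows (CXCL11) to the 64.9th (CCL5). IFNB1 was at the 8.95th. Array values compress at low levels, so the lack of calls does not show whether interferons were induced. IFNA2 was at 3.66, 2.94 and 3.63 in the hairpin arrays against 2.47 to 3.41 in the others, an overlapping difference of 0.44 ± 0.19 (SE; limma, adjusted p = 0.570). The sort collected the cells 48 hours after transfection, and earlier times are not analysed here. In the receptor and STAT list 1 of 17 measured genes was called higher, against 0.104% of all rows with 1 symbol. This was NMI, a protein that binds STAT factors, and the list's median difference was 0.09. NMI was at 3.65, 3.42 and 3.49 against 1.77 to 2.40 (median 2.15), a difference of 1.40 ± 0.14 (limma, adjusted p = 0.00155). IRF2, a factor that binds interferon response elements, was also clear of the others with a difference of 0.42 ± 0.14 that did not pass (limma, adjusted p = 0.468).

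For conjugation of ISG15, the ubiquitin-like protein induced by interferon, 5 genes were measured and 0 passed in limma, with 4 at an unadjusted p under 0.05. All 5 had positive differences, with a median of 0.54, and 3 did not overlap, against 1.14% of all rows with 1 symbol. ISG15 itself was at 5.03, 4.58 and 4.58 against 3.35 to 4.52 (median 3.92), a difference of 0.78 ± 0.16 (SE; limma, adjusted p = 0.162). In MHC class I antigen processing 1 of 13 measured genes was called higher, against 0.104% of all rows with 1 symbol. This was ERAP2, which trims peptides in the endoplasmic reticulum. It was at 3.71, 3.73 and 3.45 against 2.56 to 2.91 (median 2.77), a difference of 0.87 ± 0.12 (limma, adjusted p = 0.0136). Without shRNA replicate 1 its difference was 0.83 and the call was lost (limma, adjusted p = 0.0794). TAP1, which pumps peptides into the endoplasmic reticulum, had 0.64 ± 0.14 (adjusted p = 0.179) and did not overlap. NF-kB targets, another branch downstream of the sensors, had 0 of 18 called in limma, 1 higher and 0 lower at an unadjusted p under 0.05, 0 without overlap and a median of 0.08.

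Over all 7 interferon lists, 102 of 123 genes were measured. Of these 14 were called higher and 0 lower in limma, against 0.104% and 0.0416% of all rows with 1 symbol. At an unadjusted p under 0.05 there were 54 higher and 1 lower, against 3.53% and 4.26%. In 38 every hairpin array was above every other array, against 164 of 14432 rows (1.14%) in the whole table. In 0 every hairpin array was below, against 149 rows (1.03%) in the whole table. The median difference was 0.36, against 0.04 over 14232 genes, and 93 of the 102 were above 0. The list score, an array's average departure over the members from the mean of the 9 others, was 0.46, 0.59 and 0.52 in hairpin replicates 1, 2 and 3. It ran from -0.11 to 0.11 in the 9 others. The lists were drawn up with earlier results of these data known, so these counts are a description.

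**Figure D2:**
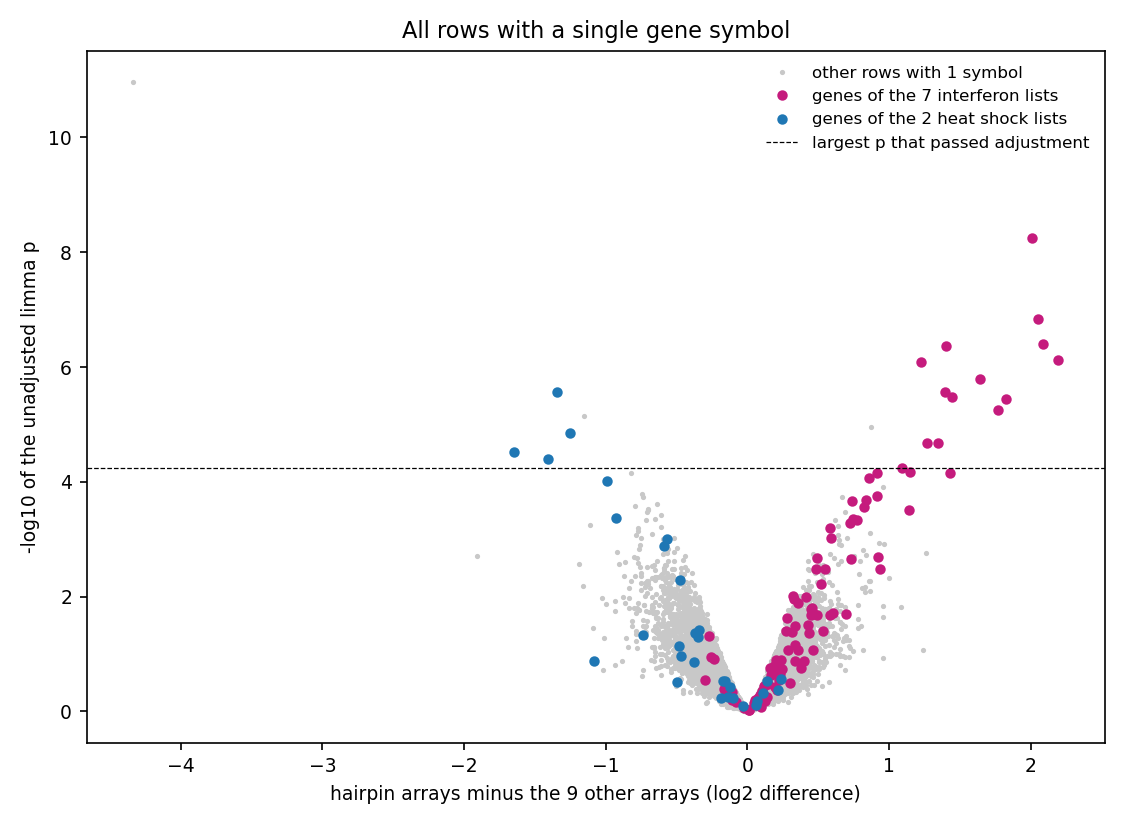
Log2 difference between the hairpin arrays and the 9 others (horizontal) against the -log10 of the unadjusted limma p (vertical) for the 14432 rows with 1 symbol; colours mark the genes of the 7 interferon and 2 heat shock lists. Above the dashed line, the largest p that passed adjustment, 14 of the 15 rows on the right belong to the interferon lists and 4 of the 6 on the left to the heat shock lists, with MED12 farthest left.

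Set against each other arm separately, 13 rows with 1 symbol were higher than in GFP (limma, 0.0901%), 10 than with full-length MED12 (0.0693%) and 3 than with the PQL/Opa deletion (0.0208%). The 3 contrasts share the hairpin arrays and so are not independent. IFI44, NMI and TRIM22 were higher than in each of the 3 arms (3 rows, 0.0208%). IFI44 differed by 2.49 from GFP, 1.97 from full-length MED12 and 1.58 from the PQL/Opa deletion, each ± 0.16 (SE; limma, adjusted p = 1.12e-04, 4.67e-04 and 0.00488). NMI differed by 1.58, 1.34 and 1.28, each ± 0.17 (adjusted p = 0.00437, 0.00938 and 0.0300). TRIM22 differed by 2.25, 2.27 and 2.07, each ± 0.28 (adjusted p = 0.0106, 0.00858 and 0.0325). With 1 array left out at a time, IFI44 stayed apart from every arm in 12 of 12 fits. TRIM22 did so in 3, those without shRNA replicate 1, GFP replicate 1 or full-length replicate 3, and NMI in 2, those without GFP replicate 1 or shRNA replicate 2. NMI and TRIM22 lay at the 10.9th and 16.4th percentile of all rows in the 9 others, where array values compress, so the size of their differences is uncertain.

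Over the 15 higher genes, the median difference was 1.80 from GFP, 1.55 from full-length MED12 and 1.28 from the PQL/Opa deletion. Among the 3 other arms the PQL/Opa deletion was highest in 15 of the 15 genes, while GFP was lowest in 13 and full-length MED12 in 2. The interferon list score was -0.07 ± 0.07 (SD, n = 3) with GFP, -0.004 ± 0.014 with full-length MED12 and 0.07 ± 0.03 with the PQL/Opa deletion. The F test for a difference among those arms passed for 0 of the 15 in limma, with 8 at an unadjusted p under 0.05, and among all rows with 1 symbol it passed for MED12 alone (adjusted p = 1.11e-07, 0.00693% of rows). Over all rows it also passed for row 2363784 (adjusted p = 5.38e-04) and row 3391149 (adjusted p = 0.0103), which carry 2 and 3 symbols. Row 3391149, chosen after its values were seen, was at 4.14 with full-length MED12, 2.52 with the PQL/Opa deletion, 1.81 with GFP and 2.03 with the hairpin, and its difference of -0.79 ± 0.19 from the 9 others did not pass (adjusted p = 0.282). RSAD2 and IFIT2, higher by 1.55 ± 0.22 and 1.70 ± 0.25 (SE) than in the PQL/Opa deletion, were just outside the threshold there (limma, adjusted p = 0.0545 for both). Without the GFP arm 8 of the 15 calls remained, without the full-length arm 9 and without the PQL/Opa deletion arm 12. After quantile normalization 13 single-symbol genes were apart from every arm, among them IFIT1, IFIT2, RSAD2 and RIGI.

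**Figure D3:**
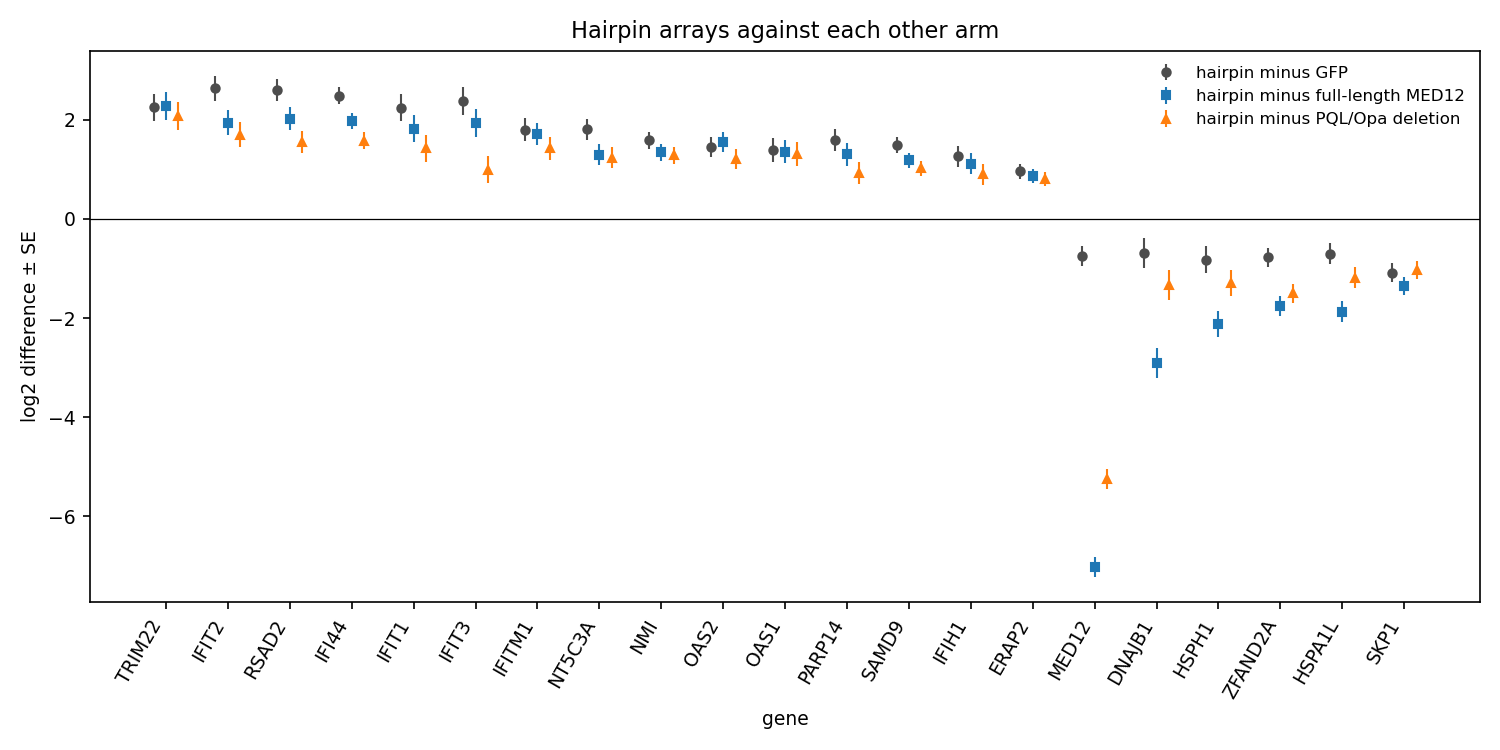
Log2 difference of the hairpin arrays from each other arm for the 15 higher and 6 lower genes; points are differences of arm means and bars are ± SE. The higher genes lie above 0 against every arm, with medians of 1.80, 1.55 and 1.28, while the 6 lower genes differ most from full-length MED12.

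MED12, the target of the hairpin, was at 3.63, 3.63 and 3.74 in the hairpin arrays, below every other array. The others ran from 4.03 to 10.75, since 2 of the 3 arms carried a MED12 construct. The pooled difference of -4.34 ± 0.16 (SE; limma, adjusted p = 2.40e-07) averages unlike distances, -7.01 from full-length MED12, -5.25 from the PQL/Opa deletion and -0.75 ± 0.20 from GFP, which did not pass (adjusted p = 0.730). MED12 averaged 3.67 in the hairpin arrays and 4.41 in the GFP arrays, while array medians ran from 3.39 to 3.51. Whether low levels compressed the difference from GFP was not tested. With the 9 others taken as a single group MED12 was not called (limma, adjusted p = 0.382). The other kinase module genes did not pass, among them CCNC, the cyclin of the module, at -0.40 ± 0.19 (adjusted p = 0.617), and CDK8, its kinase, at -0.30 ± 0.27 (adjusted p = 0.768). MED12L, the paralogue of MED12, was at 3.25, 2.62 and 2.90 against 2.71 to 3.17, a difference of -0.04 ± 0.15 (adjusted p = 0.944). Of 21 measured core Mediator genes 0 passed in limma, 0 higher and 1 lower at an unadjusted p under 0.05, and the median difference was -0.11.

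Heat shock chaperones included 3 of the called lower genes, DNAJB1, HSPH1 and HSPA1L. Of 22 measured 3 were called lower and 0 higher in limma, 10 were lower and 0 higher at an unadjusted p under 0.05, 20 were below 0 and the median was -0.47. Over all rows with 1 symbol, 0.0416% were called lower and 4.26% were lower at an unadjusted p under 0.05. DNAJB1, the co-chaperone that delivers clients to HSP70, was at 2.64, 3.65 and 2.77 in the hairpin arrays against 3.41 to 6.35 (median 4.52), so hairpin replicate 2 overlapped the others. Its difference was -1.64 ± 0.25 (SE; limma, adjusted p = 0.0277), made of -0.69 from GFP, -2.91 from full-length MED12 and -1.33 from the PQL/Opa deletion, of which the full-length contrast passed (adjusted p = 0.00400). HSPH1, a nucleotide exchange factor of HSP70, was at 4.80, 5.96 and 5.32 against 5.86 to 7.56 (median 6.77), again with replicate 2 overlapping, a difference of -1.41 ± 0.22 (adjusted p = 0.0335). HSPA1L, an HSP70 family member close in sequence to its neighbours, was at 3.21, 2.62 and 3.23 against 3.40 to 5.04 (median 4.20), a difference of -1.25 ± 0.17 (adjusted p = 0.0162) with no overlap.

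Of 9 measured heat shock factors and clearance genes 1 was called lower in limma, against 0.0416% of all rows with 1 symbol. In that list 5 were below 0 and 4 above, with a median of -0.03. The called gene was ZFAND2A, which helps the proteasome clear damaged proteins and is induced by arsenite. It was at 3.96, 4.58 and 4.18 against 4.87 to 6.19 (median 5.85). It was clear of all others, with a difference of -1.35 ± 0.16 (SE; limma, adjusted p = 0.00466), and was lower than full-length MED12 and the PQL/Opa deletion separately (-1.76, adjusted p = 0.00400, and -1.51, adjusted p = 0.0299), while -0.78 from GFP did not pass (adjusted p = 0.638). Full-length MED12 was the highest of the other arms for all 6 lower genes. Against GFP 0 rows with 1 symbol were lower in limma (328 at an unadjusted p under 0.05), against full-length MED12 8 were (0.0554%) and against the PQL/Opa deletion 2, MED12 and ZFAND2A (0.0139%). The chaperone list score was -0.84, -0.26 and -0.54 in hairpin replicates 1, 2 and 3, -0.25 ± 0.22 (SD, n = 3) with GFP, 0.32 ± 0.06 with full-length MED12 and -0.07 ± 0.10 with the PQL/Opa deletion. Hairpin and GFP arrays overlapped in that score, the lowest GFP array being at -0.50.

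These heat shock calls rested on particular arrays. Without the full-length arm, DNAJB1 (-1.01, adjusted p = 0.809), HSPH1 (-1.06, adjusted p = 0.743), HSPA1L (-0.95, adjusted p = 0.379) and ZFAND2A (-1.14, adjusted p = 0.136) were not called by limma. Without the PQL/Opa deletion arm, DNAJB1 (-1.80, adjusted p = 0.0568), HSPH1 (-1.47, adjusted p = 0.104) and HSPA1L (-1.29, adjusted p = 0.0750) were not called, while ZFAND2A was (-1.27, adjusted p = 0.0354). All 4 were called without the GFP arm. With the 9 others as a single group these 4 genes, IFIT3 (adjusted p = 0.148) and PARP14 (adjusted p = 0.0525) were not called either. With 1 array left out at a time, the HSPH1 call was lost in 9 of 12 fits, all but those without shRNA replicate 2, GFP replicate 1 or PQL/Opa deletion replicate 1 (differences of -1.47 to -1.13). The DNAJB1 call was lost in 7, those without any full-length array, PQL/Opa deletion replicate 2 or 3, or shRNA replicate 1 or 3 (differences of -1.66 to -1.43). The HSPA1L call was lost without full-length replicate 2 or 3 or shRNA replicate 3 (differences of -1.36 to -1.16), and the ZFAND2A call without shRNA replicate 3 (-1.32, adjusted p = 0.0518). The chaperone median was -0.26 without shRNA replicate 1.

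**Figure D4:**
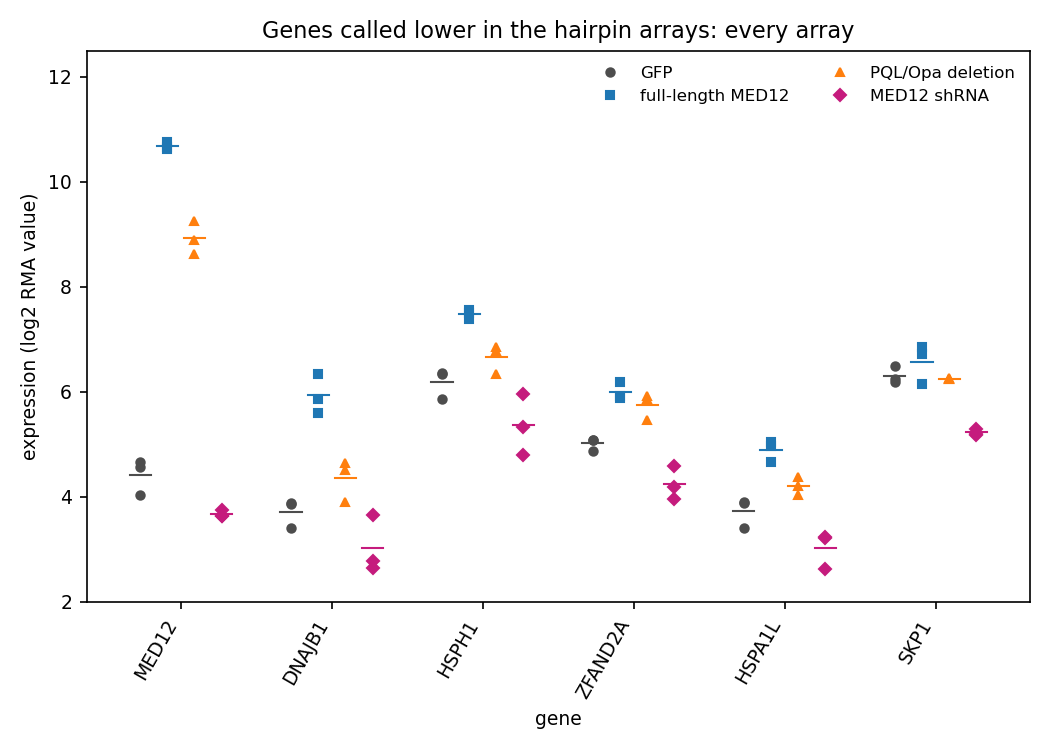
Log2 expression of the 6 genes called lower in the hairpin arrays, for every array; points are arrays, short lines are arm means, and colours and shapes mark the 4 arms. Full-length MED12 is the highest arm for all 6 genes, and a hairpin array reaches into the range of the 9 others for DNAJB1 and HSPH1.

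SKP1, which joins F-box proteins to the cullin of SCF ubiquitin ligases, was at 5.30, 5.18 and 5.20 in the hairpin arrays against 6.15 to 6.85 (median 6.25), with no overlap. The difference was -1.15 ± 0.15 (SE; limma, adjusted p = 0.00939), made of -1.08 from GFP (which did not pass), -1.35 from full-length MED12 (adjusted p = 0.0138) and -1.03 from the PQL/Opa deletion (adjusted p = 0.152). It remained called without the full-length arm (-1.05, adjusted p = 0.0341) and without the GFP arm (-1.19, adjusted p = 0.0440), but not without the PQL/Opa deletion arm (-1.22, adjusted p = 0.0568). The call was also lost after quantile normalization (-0.98, adjusted p = 0.159), after scaling the arrays to a common spread (-1.01, adjusted p = 0.247) and without shRNA replicate 3 (-1.14, adjusted p = 0.0961). Of 9 measured genes of these ligases SKP1 was the called member, while 0.0416% of all rows with 1 symbol were called lower. SKP2, an F-box protein, had -0.51 ± 0.15 (SE; limma, adjusted p = 0.394).

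Rows with several symbols or none held 6 further calls, to which no gene can be assigned. Row 2363784, with 2 symbols of which 1 is in the heat shock lists, was at 3.61, 3.16 and 3.25 in the hairpin arrays against 4.35 to 6.94 (median 5.46). It differed by -2.25 ± 0.14 (SE; limma, adjusted p = 2.54e-05) and was lower than each arm separately, by -1.11 from GFP (adjusted p = 0.0448), -3.49 from full-length MED12 and -2.15 from the PQL/Opa deletion. With IFI44, NMI and TRIM22 it made up the 4 rows apart from every arm (0.0182% of all rows), but with 1 array left out it was apart from every arm in 1 of 12 fits, the one without shRNA replicate 1. The 4 rows became 1, IFI44, without full-length replicate 1 or 2, any PQL/Opa deletion array, GFP replicate 2 or 3, or shRNA replicate 3, and 2 without full-length replicate 3. Rows 2902725 and 2902707, whose 2 symbols each are all in the heat shock lists, differed by -1.55 ± 0.17 (adjusted p = 0.00316) and -1.31 ± 0.15 (adjusted p = 0.00416), and their hairpin arrays lay below all others. Neither was called without the full-length arm (adjusted p = 0.0739 and 0.0665). With the 9 others as a single group, rows 2902725 (limma, adjusted p = 0.104) and 2363784 (adjusted p = 0.227) were not called. Scaling the arrays to a common spread removed the call of row 2902707. Row 2902707 was among the brightest rows, at percentile 99.3, and its differences were -1.39 from GFP, -1.49 from full-length MED12 and -1.04 from the PQL/Opa deletion. Row 2421883, with 1 of its 2 symbols in the interferon lists, was higher by 1.22 ± 0.18 (adjusted p = 0.0219). Its call was lost in 8 of 12 fits without 1 array, all but those without PQL/Opa deletion replicate 1 or 3, GFP replicate 1 or shRNA replicate 2 (differences of 1.13 to 1.22, adjusted p from 0.0534 to 0.249), and without the GFP arm (adjusted p = 0.109) or the full-length arm (adjusted p = 0.226). The rows with no symbol, 3725803 and 3362736, were lower by -1.31 ± 0.20 (adjusted p = 0.0277) and -1.68 ± 0.26 (adjusted p = 0.0335). The call of row 3725803 was lost in 8 of the 12 fits, all but those without shRNA replicate 2, PQL/Opa deletion replicate 2 or GFP replicate 1 or 3 (adjusted p from 0.0550 to 0.285). That of row 3362736 was lost in 9, all but those without GFP replicate 1, PQL/Opa deletion replicate 2 or shRNA replicate 2 (adjusted p from 0.0550 to 0.275), and with the replicate number as a block (adjusted p = 0.0559). Both were lost whichever of the 3 other arms was left out (adjusted p from 0.0775 to 0.337), and also without the 3 arrays of narrowest spread.

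Just outside the threshold lay IFI44L (1.15 ± 0.19, SE), SAMD9L (0.91 ± 0.15) and GMNN, an inhibitor of replication licensing (-0.82 ± 0.14), each at an adjusted p of 0.0508 in limma. BST2, or tetherin, followed with 0.86 ± 0.15 (adjusted p = 0.0574), and HSPA4L, a chaperone of the HSP110 family, with -0.99 ± 0.17 (adjusted p = 0.0589). All of these had their 3 hairpin arrays beyond the 9 others, as did 1.14% of all rows with 1 symbol above and 1.03% below.

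Outside these groups the lists had 0 genes called. In the RNA interference machinery, which processes hairpins, 0 of 15 passed in limma and 1 was higher at an unadjusted p under 0.05, with a median difference of 0.04. MOV10, a helicase of that pathway, had 0.38 ± 0.15 (SE; adjusted p = 0.548) and XPO5, which exports hairpin precursors, -0.37 ± 0.24 (adjusted p = 0.677). Of 20 targets of ATF4, the factor of amino acid and protein stress, 4 were lower at an unadjusted p under 0.05 and 0 passed, with a median of -0.19. DDIT4, one such target, had -0.75 ± 0.21 (adjusted p = 0.379). Targets of p53 (0 of 17), chaperones of the endoplasmic reticulum (0 of 16) and apoptosis genes (0 of 15) also had 0 calls in limma, with 1, 1 and 0 at an unadjusted p under 0.05. DNA replication genes had a median of -0.17 over 24, with 0 called and 1 higher and 2 lower at an unadjusted p under 0.05, and oxidative phosphorylation genes -0.22 over 27, with 0 called and 2 lower.

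Neuronal genes silenced by REST, a repressor that works with MED12, had 0 of 20 called in limma, 0 higher and 1 lower at an unadjusted p under 0.05, and a median of 0.08 that was -0.09 without shRNA replicate 1. NEFM, a neurofilament gene of that list, was at 4.68, 4.82 and 5.01 in the hairpin arrays against 5.25 to 5.80 (median 5.53), clear of the others with a difference of -0.65 ± 0.13 (SE; limma, adjusted p = 0.160). JUN, an immediate early gene, was at 4.16, 4.34 and 4.41 against 4.59 to 4.96, also without overlap, with -0.49 ± 0.12 (adjusted p = 0.290). Of all rows with 1 symbol, 149 (1.03%) lay below all 9 others in the same way. Another 8 lists, RNA polymerase II subunits, immediate early genes, mitosis, ribosomal proteins, lipid synthesis, hypoxia and glycolysis, Hedgehog and Wnt, held 136 genes with 0 called in limma, 4 higher and 12 lower at an unadjusted p under 0.05. Their medians ran from -0.26 (RNA polymerase II subunits) to 0.14 (Hedgehog, -0.02 without shRNA replicate 1).

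**Figure D5:**
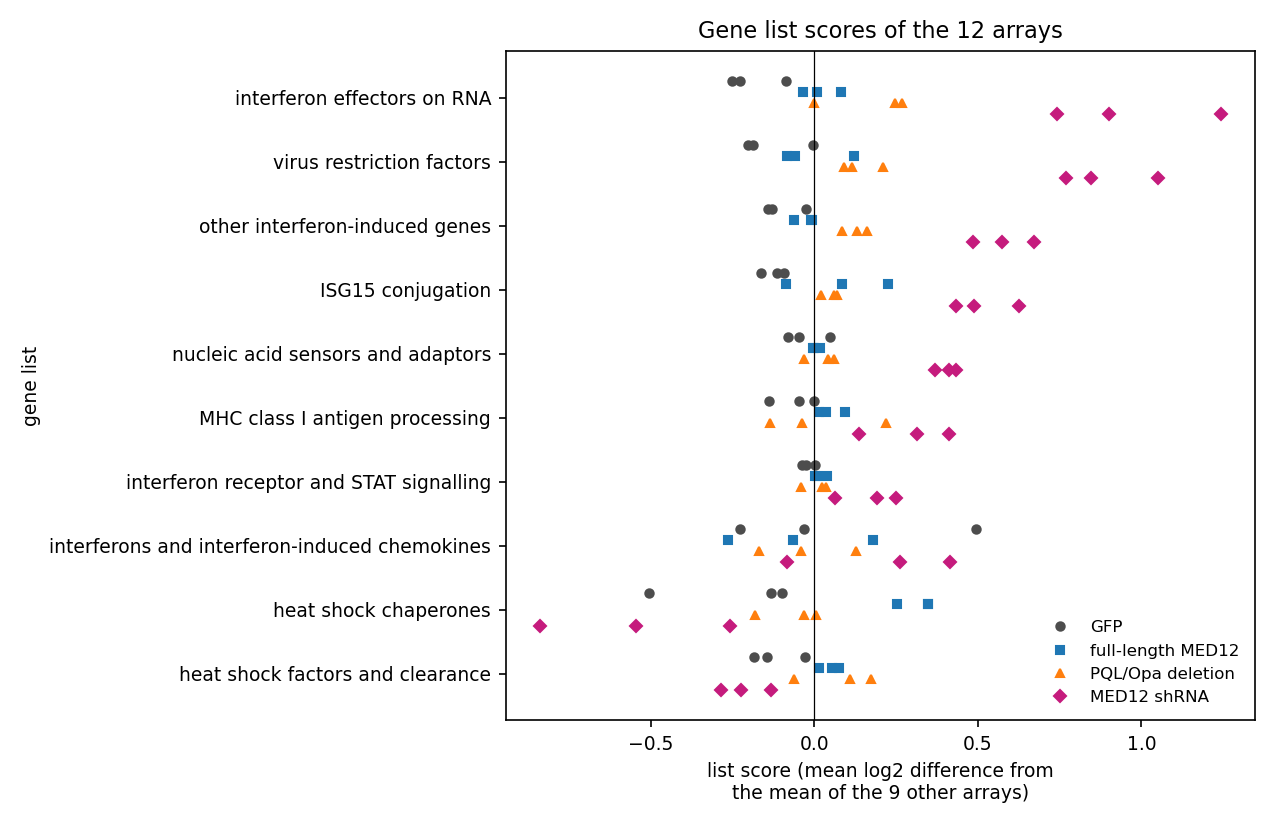
Score of 10 gene lists in each of the 12 arrays (average log2 departure of the members from the mean of the 9 other arrays); points are arrays, and colours and shapes mark the 4 arms. The hairpin arrays stand clear of the others for the RNA effectors, restriction factors, other interferon-induced genes, ISG15 conjugation, sensors and, narrowly, the receptor and STAT list. They overlap the others for interferons and chemokines, MHC class I and both heat shock lists.

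The HEK293 identity was checked with 10 marker genes, whose mean level was 4.43 to 4.77 in the hairpin arrays and 4.46 to 4.84 in the 9 others. Of the 10 markers 7 were below 0 and 3 above, with a median difference of -0.05 and 0 called. VIM, an intermediate filament of these cells, was at 6.19 in the hairpin arrays and 5.96 in the others, and KRT18 at 3.00 and 3.56. NEFM, also on the REST list, was lower without overlap, by -0.65 ± 0.13 (SE; limma, adjusted p = 0.160). The 6 marker lists of other cell types had 0 of 54 members called in limma, with 2 higher and 1 lower at an unadjusted p under 0.05, and their median levels lay between the 17.9th and 46.4th percentile of rows. The T cell list was above 0 in 10 of 10 genes with a median difference of 0.12, and CD3D in it had 0.66 ± 0.23 (SE; limma, adjusted p = 0.484). The 5502 rows of lowest level also had a median of 0.12. The T cell score was 0.39, -0.09 and 0.17 in hairpin replicates 1, 2 and 3, and -0.21 to 0.44 in the others. The myeloid list had 8 of 9 above 0 and a median of 0.19. After quantile normalization the T cell median was 0.05 and the myeloid median 0.14. Their mean levels were 2.80 to 3.28 and 2.90 to 3.26 in the hairpin arrays, against 2.68 to 3.33 and 2.69 to 3.22 in the others, and their part in the result was not tested.

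The arrays differed in spread. The standard deviation of their log2 values ran from 1.34 to 1.60, the lowest being in shRNA replicate 1, GFP replicate 1 and PQL/Opa deletion replicate 1. Dim rows were shifted up in the hairpin arrays and bright rows down, by a median of 0.12 for the 5502 rows of lowest level and -0.14 for the 5503 of highest. After quantile normalization these medians were 0.03 and -0.04, the interferon median stayed at 0.36 and the chaperone median was -0.42. Of the 15 higher genes 15 were called after quantile normalization, and 5 of the 6 lower genes. Without the 3 narrow arrays the interferon median was 0.39 and the chaperone median -0.34, with 12 of the 15 and 4 of the 6 still called by limma. Those lost were IFIT3 (1.71, adjusted p = 0.0644), NT5C3A (1.30, adjusted p = 0.0964), ERAP2 (0.84, adjusted p = 0.0933), DNAJB1 (-1.74, adjusted p = 0.0567) and SKP1 (-1.19, adjusted p = 0.0711).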

How the data were processed

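RNA from 12 samples was amplified, labelled with biotin and read on 1-colour arrays. The deposited log2 values were made by the authors with RMA and Partek on build hg18, per the submitters' processing notes. Versions, background option and filters: not given in the sources used here. They were used as deposited, and 0 columns were left out. Of 22011 rows the platform annotation gave 1 symbol for 14432, several for 2408 and none for 5171; 14404 matched a RefSeq gene table by Entrez identifier, and 0 were renamed. For lists, 1 row per gene was kept, that with the highest mean (14232 genes), and 131 of 683 list genes had no row with 1 symbol. limma 3.58.1 in R 4.3.3 was fitted with 4 group means on all 12 arrays (8 residual and 3.52 prior degrees of freedom, no trend). The hairpin mean was compared with the mean of the 9 others and with each arm, and an F test compared the other 3 arms. Two-sided p-values were adjusted by Benjamini-Hochberg over the 22011 rows, at a threshold of 0.05, and every adjusted p is from limma. The median standard error was 0.19 for the pooled difference and 0.23 for an arm, limited by the number of arrays. In data simulated for the pooled comparison over 22011 rows, 60% of log2 changes of 1 and 93% of changes of 2 were recovered, and 6.71% of calls were false. The simulated noise was independent between arrays, with the same spread per row in every array and no differences among the other arms. The real arrays differed in spread, so recovery in them may differ. Named genes were MED12, MED12L, up to 15 called rows per direction by size, rows called against every arm, and called rows where the other arms differ. Members among the 3 of smallest p in each list were also named, though not all of them. Those just outside the threshold, IFNB1, TLR3, IFIT5, OAS3, OASL, MX1, MX2 and rows without a single symbol were chosen after their values were seen. What separated the biological replicates is not stated, so p-values measure the spread between these samples. Members and lists were chosen with earlier results of these data known. Alternatives were other scalings, the 9 arrays as a single group, a replicate block, array weights, rows with 1 symbol alone, and leaving out each array, arm or the 3 narrow arrays. Promoters are RefSeq sequences of GRCh38.p14. The hairpin's own sequence is not used here.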

Additional observations from a re-analysis of the deposited data

Results flagged for a closer look

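Of 127 rows named or examined, 4 had an array among the 9 others far from the rest, where chance flags about 1 in 20 groups. Row 2421883, called higher with the hairpin by 1.22 but not in 8 of 12 fits without 1 array, was at 2.61 in PQL/Opa deletion replicate 1, with the nearest other array at 2.11. CCL2, an NF-kB target, was at 3.54 in the same array, with the nearest at 3.10. POLR2H, a subunit of RNA polymerase II, was at 4.40 in GFP replicate 1, with the nearest at 5.35. CTNNB1, the beta-catenin gene, was at 3.99 in that array, with the nearest at 4.53. Both arrays are among the 3 with the narrowest spread.

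The hairpin's difference depended on the arm it was set against for MED12 (limma F test among the other arms, adjusted p = 1.11e-07) and for row 2363784 (adjusted p = 5.38e-04).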

How the results depend on the processing

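The 27 called rows became 59 with a replicate block, 9130 with array weights (8.77 for shRNA replicate 3) and 12 without the full-length arm. Leaving out 1 array gave 16 (without shRNA replicate 3) to 73 (without shRNA replicate 2). The 15 higher genes became 24 with the block, 24 after quantile normalization, 23 after scaling to a common spread, 3239 with array weights, 25 with rows of 1 symbol alone, 8 without the GFP arm, 9 without the full-length arm, and 12 to 19 without 1 array. The 6 lower genes became 3 with the 9 others as a single group, 19 with the block, 2568 with array weights, 10 with rows of 1 symbol alone, 2 without the full-length arm, 2 without the PQL/Opa deletion arm, and 1 (without shRNA replicate 3) to 16 (without shRNA replicate 2). The 4 rows apart from every arm became 15 after quantile normalization, 9 after scaling, 1999 with array weights, 8 with rows of 1 symbol alone, and 1 to 5 without 1 array. The 3 rows differing among the other arms became 5 with the block, 14 with array weights, 1 with rows of 1 symbol alone, and 2 to 3 without 1 array. The cause was not tested. Of the 15 higher genes 11 kept their call in all 12 fits without 1 array, and of the 6 lower genes MED12 did. Same-numbered arrays correlated by 0.02 to 0.46 with GFP, 0.05 to 0.20 with full-length MED12 and 0.05 to 0.45 with the PQL/Opa deletion. Values were over 0.1 in 2 of 3 pairs with GFP, 1 of 3 with full-length MED12 and 2 of 3 with the PQL/Opa deletion. The labels do not say what the numbers mark, and the main fit leaves a shared effect of the number out. In 6 of 9 cases a hairpin array correlated best with its own number.

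Differences that did not pass took the other sign in some fits. Without 1 array, MED12L ran from -0.205 (without shRNA replicate 1) to 0.106 (without shRNA replicate 2), HMOX1 from -0.339 (shRNA replicate 1) to 0.00607 (replicate 3), CD28 from -0.0446 (replicate 1) to 0.504 (replicate 2), MS4A1 from -0.0181 to 0.610 and TEK from -0.0262 to 0.294 (same replicates), and KRT14 from -0.0186 (replicate 3) to 0.742 (replicate 1). MED12L was at 0.0107 without the PQL/Opa deletion arm, and MED28 at 0.0132 and MS4A1 at -0.00961 without the 3 narrow arrays. The number of arrays limits what could be detected.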
